A study of Mus musculus with 2 samples.

Results

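The SUMO modifiers Sumo2 and Sumo3 and the SUMO proteases Senp1, Senp2, Senp3, Senp5, Senp6 and Senp7 were examined in lists of m6A positions called from nanopore direct RNA sequencing (DRS). A member position was a unique chromosome, base and strand that lay in an exon of these 8 genes on the same strand. The lists held 143 such positions in 7 of the 8 genes, out of 160430 positions in 10912 genes. The 8 genes were chosen by their listings in the wild type (WT) and knockout (KO) libraries, so the listings are described here without a test.

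Poly(A) RNA came from mouse 129 embryonic stem cells (mESCs), either WT or Mettl3 KO, with 1 DRS library of each and no replicate. In the KO cells, exons 5 to 7 of Mettl3 had been replaced by puromycin and hygromycin resistance genes with CRISPR-Cas9 and colonies changed on both alleles were selected with these drugs and grown. How many colonies gave the library is not given in the sources used here. For 7 tools (ELIGOS, Epinano, m6Anet, MINES, Nanom6A, Tombo and xPore) there is 1 list per library, and for the other 3, called comparison tools here (DiffErr, DRUMMER and Nanocompore), 1 list in which WT was set against KO, giving 17 lists in all. By the study's methods, MINES takes Tombo's output as its input, Nanom6A starts from signals that Tombo assigned to bases, and m6Anet, Nanocompore and xPore share the signal assignment of Nanopolish, so a count of tools is not a count of independent calls. xPore also fits both libraries together. The lists carry positions only, with no score, methylation rate or read number, so the depth behind a position is unknown and an unlisted position cannot be told from one with too few reads.

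m6A is a methyl group that the Mettl3 and Mettl14 complex writes on adenosines of mRNA, mainly in the sequence RRACH (R is A or G, H is A, C or T) and often near stop codons and in long exons. SUMO proteins are small modifiers joined to lysines of other proteins by a cascade of enzymes that starts with the E1 pair Sae1 and Uba2 and ends with a set of E3 ligases. The SENP proteases cut SUMO precursors to their mature form and take SUMO off its targets: Senp1 and Senp2 act broadly, Senp3 and Senp5 are nucleolar and prefer Sumo2 and Sumo3, and Senp6 and Senp7 trim chains of these modifiers.

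The labels were checked at Mettl3, the gene for the writer itself. It had 13 WT or comparison positions and 5 KO positions, with 7 and 0 in exons 1 to 4, 2 and 0 in the replaced exons 5 to 7, and 4 and 5 in exon 8 to the last. KO lists thus held none in the intact exons 1 to 4 either, so the 0 is not particular to the replaced exons. All 10 embryonic stem cell markers had a listed position, against 2 of 5 fibroblast, 1 of 3 primitive endoderm and 0 of 3 mesoderm and neuroectoderm markers. The stem cell markers had 259 WT or comparison and 200 KO positions, the fibroblast markers 3 and 4, and the primitive endoderm marker Sox17 12 and 0. A listed position shows that reads covered a gene and gives no expression level.

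The sequences around the positions on which the results turn are printed from the GRCm38 genome, 5′ to 3′ on the gene's strand, with the 5-mer whose middle A was listed in capitals. The first is listed by all 10 tools, the next by 9 tools, and the third holds a pair of neighbours in Senp3, AGACT listed by 9 tools and GGACC listed in WT and again in KO by the same 6 tools. The fourth is listed in both libraries by the same 4 tools.
Sumo3, chr10:77617082-77617106, + strand: tcattctcacGGACTgtgctgtgca
Senp3, chr11:69680171-69680195, - strand: ggaggaagatGGACTaaggtggacc
Senp3, chr11:69680810-69680838, - strand: tgaaagAGACTatacaggGGACCgggtct
Sumo3, chr10:77616754-77616778, + strand: gtgcttcttaAGACAgtgaggggtc
Positions repeated in KO by 3 tools include a GGACA in the coding sequence of each SUMO gene, printed next with 3 more from Senp3.
Sumo2, chr11:115534621-115534645, - strand: gaaggtggcgGGACAggatggttct
Sumo3, chr10:77614006-77614030, + strand: ccggtttgatGGACAaccaatcaat
Senp3, chr11:69673575-69673599, - strand: tcacccagcaGGACAtgcccaaact
Senp3, chr11:69674224-69674248, - strand: aagaccgactGGACTtccatcaggg
Senp3, chr11:69674590-69674614, - strand: ctttccaggtGGACAtcttcaataa

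Of the 143 positions, WT or comparison lists held 123 and KO lists 109. Both kinds of list held 89 of them, 34 were in WT or comparison lists alone and 20 in KO lists alone. At least 1 tool therefore listed in KO 72.4% of the WT or comparison positions, against 59.0% over all genes. This difference rested on Nanom6A. Without that tool, an alternative chosen after seeing the data, 30 of 45 were listed in KO in Sumo2, Sumo3 and Senp3. In Senp1, Senp2, Senp5 and Senp6 it was 25 of 57, and over all genes 53.9%. Of the KO positions, 18.3% were absent from every WT and comparison list, against 29.2% over all genes. All 143 positions lay in RRACH, and all 143 fell on the coding transcript chosen for their gene with the same 5-mer after splicing.

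The positions were spread unevenly, as the map of the transcripts shows. Distances are counted in nt along that transcript from the first base of the stop codon, with negative values upstream of it. Senp3 held 36 positions, Senp6 33, Senp1 and Senp2 18 each, Sumo2 17, Sumo3 15 and Senp5 6, and Senp7 held none. The median gene, among 9890 coding genes with a listed position and at least 10 RRACH on the transcript, had 14.

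**Figure D1:**
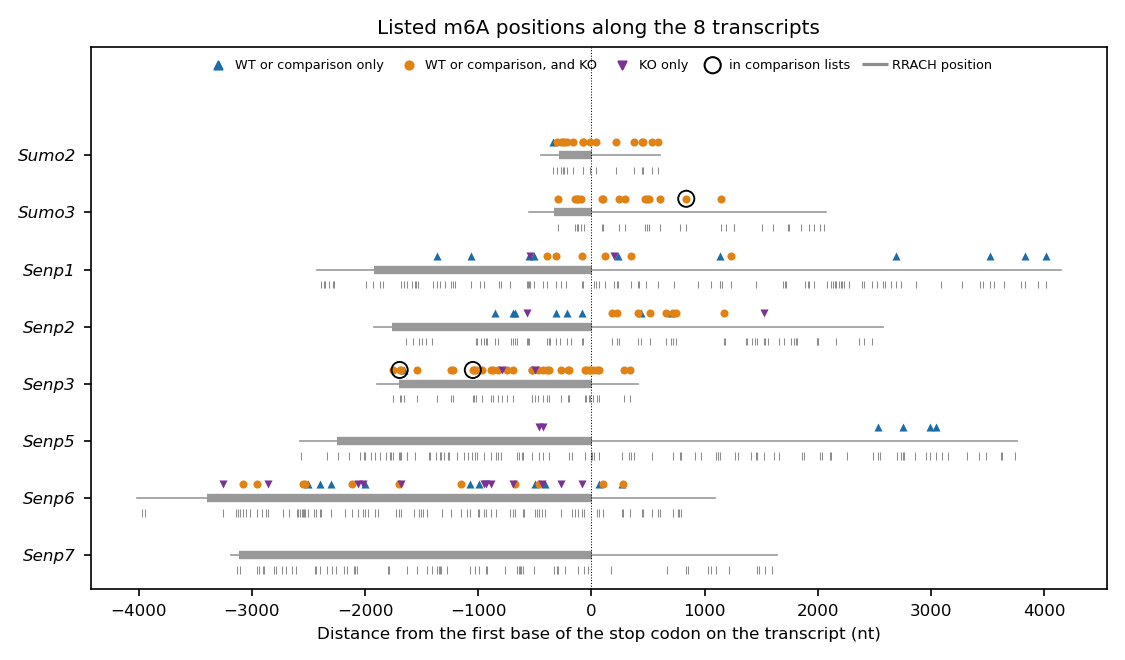
Listed m6A positions along 1 coding transcript per gene, in nt from the first base of the stop codon. Thick bars are coding sequence, thin lines UTRs, grey ticks all RRACH positions, and symbols mark the 143 positions by library, with circles for the 3 in comparison lists. Sumo2, Sumo3 and Senp3 carry mostly positions of both libraries, and Senp7 carries none.

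Sumo2 (ENSMUSG00000020738, chr11:115523102-115536276, - strand) encodes a modifier that can form chains. All 17 RRACH positions of its 1051 nt transcript were listed in WT (100%), and 16 of them in KO (94.1%). The position absent from KO was a GGACC in the 5′ UTR, at -336 nt, which Nanom6A alone listed in WT. Nanom6A listed all 17 in WT and 16 in KO, whereas Tombo listed 4 and 3 and MINES none. No Sumo2 position was in a comparison list, and 10 of the 17 had Nanom6A as their only tool in WT. The position with most tools was the GGACA at -214 nt in exon 2, which Tombo, Nanom6A and xPore listed in WT and again in KO.

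Sumo3 (ENSMUSG00000020265, chr10:77606097-77618331, + strand) encodes the close relative of Sumo2. Of 29 RRACH positions on its 2630 nt transcript, 15 were listed in WT or comparison lists and the same 15 in KO (51.7% each). They included 5 of the 6 in the coding sequence and 10 of the 23 in the 3′ UTR. The listed positions ended at 1142 nt after the stop codon, and the 12 RRACH positions beyond it were listed by no tool. Within the listed stretch, from -297 to 1142 nt, 15 of 17 RRACH positions were listed.

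The GGACT of Sumo3 at position 77617094, 838 nt after the stop codon in the 3′ UTR of the last exon, was called by every tool, counting WT and comparison lists. Over all genes, 0.0480% of WT or comparison positions had all 10 tools. In KO, m6Anet alone listed it. It is the only GGACT on the chosen Sumo3 transcript. Upstream in the same exon, the AGACA at position 77616766, at 510 nt, had the same 4 tools in both libraries, Epinano, m6Anet, Nanom6A and Tombo, and no comparison tool. Within 1 exon, 1 position was thus listed in KO by 1 of its 7 WT tools and the other by all of its 4.

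Senp3 (ENSMUSG00000005204, chr11:69673115-69682084, - strand), a nucleolar protease known for its part in ribosome biogenesis, was the most densely listed protease gene. Of 37 RRACH positions on its 2313 nt transcript, 34 were listed in WT or comparison lists (91.9%) and 35 in KO (94.6%). Both kinds of list held 33 of them. The position listed in WT alone was a GGACC in exon 2, at -1654 nt, called by Tombo and m6Anet. The 2 positions listed in KO alone were GAACA 5-mers in exons 6 and 3, at -500 and -787 nt, called by Nanom6A.

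Exon 2 of Senp3, 708 nt long, held the positions with most tools. The GGACT at position 69680183, at -1048 nt, was listed in WT by Tombo, Nanom6A, m6Anet, ELIGOS, Epinano and xPore and by all 3 comparison tools. Tombo and Nanom6A listed it again in KO. The AGACT at position 69680830, at -1695 nt, was listed in WT by Tombo, MINES, Nanom6A, m6Anet, ELIGOS and Epinano and by all 3 comparison tools. In KO it was listed by Tombo, MINES, Nanom6A and xPore, and 3 of these tools listed it in both libraries.

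The GGACC at position 69680818 lies 12 nt downstream of that AGACT, in the 29 nt printed above, and had another pattern. Tombo, MINES, Nanom6A, m6Anet, ELIGOS and Epinano all listed it in WT and all 6 listed it again in KO, and no comparison tool listed it. Over all genes, 5 positions (0.00312%) were listed in both libraries by at least 6 tools, and this is 1 of the 5. m6Anet, ELIGOS and Epinano listed both neighbours in WT but only the GGACC in KO. A further GGACC of this exon, at -1545 nt, had 4 tools in WT and Nanom6A alone in KO.

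**Figure D2:**
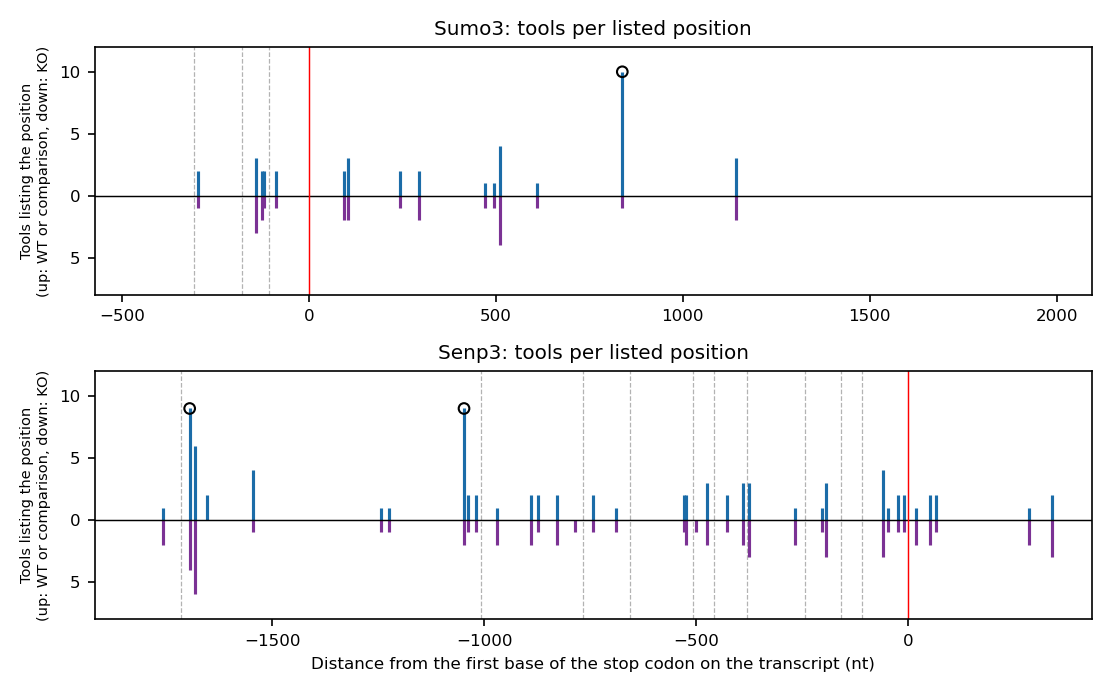
Number of tools listing each position of Sumo3 (top) and Senp3 (bottom), upward for WT or comparison lists and downward for KO lists, against distance from the first base of the stop codon in nt. Circles mark positions in comparison lists, dashed lines exon junctions and the red line the stop codon. The Sumo3 position with 10 tools has 1 in KO, and the Senp3 position at -1683 nt has 6 in both directions.

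Counted over the 8 genes, 2 positions were listed in both libraries by at least 4 tools, the AGACA of Sumo3 and the GGACC of Senp3 described above, against 0.248% of all listed positions. At 3 tools or more there were 8, against 1.61%. The 6 with exactly 3 tools, just outside that limit, were the GGACA of Sumo2 at -214 nt, the GGACA of Sumo3 at -142 nt and 4 positions of Senp3. Those of Senp3 were the AGACT at -1695 nt, a GGACA at -59 nt in exon 11, a GGACT at -194 nt in exon 9 and a GGACA at -377 nt in exon 8. All 8 lay in Sumo2, Sumo3 or Senp3, and 1 of the 8 was also in the comparison lists. At 5 tools or more there was 1, the GGACC of Senp3, against 0.0268%. An AAACT of Senp3 at 338 nt in the 3′ UTR also had 3 tools in KO, Tombo, Nanom6A and Epinano, of which the last 2 had listed it in WT.

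The comparison tools listed 3 of the 123 WT or comparison positions, 2.44% against 2.45% over all genes. Each of the 3 was listed by all 3 comparison tools, as were 16.4% of the 3166 comparison positions over all genes. Positions with all 3 comparison tools thus made up 2.44% of the members' WT or comparison positions and 0.402% of those over all genes. They lay in 2 of the 8 genes, Sumo3 and Senp3. Among the 9890 coding genes, 15.2% had a comparison position. Each of the 3 was also listed in KO by 1 to 4 tools. The share of comparison positions over all genes that a KO list held is not given here, so this count has no background. In WT or comparison lists, 4 member positions had at least 5 tools, against 3.28% of positions over all genes, and each of the 4 was also in a KO list. Over all genes, 4228 positions had at least 5 tools, and 1174 of these were in no KO list (0.910% of all WT or comparison positions).

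Senp1 (ENSMUSG00000033075, chr15:98038744-98093744, - strand), which processes all SUMO forms, had 16 of its 100 RRACH positions listed in WT (16%) and 8 in KO (8%). Both libraries shared 6 positions, 10 were in WT alone and 2 in KO alone. The listings came from Tombo, with 14 in WT and 7 in KO, from Epinano, with 6 and 1, and from MINES, with 2 and 0. No Senp1 position had more than 2 tools in WT or more than 1 in KO. Both GGACT positions far down the 3′ UTR, at 3828 and 4021 nt, had Tombo and Epinano in WT and were in no KO list. The 18 RRACH positions upstream of -1368 nt were not listed.

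Senp2 (ENSMUSG00000022855, chr16:22009484-22049269, + strand), a protease found at the nuclear pore, had 16 of 63 RRACH positions listed in WT (25.4%) and 10 in KO (15.9%). In the coding sequence, 6 positions were in WT alone, 1 was in KO alone and none was in both. In the 3′ UTR, 8 were in both, 2 in WT alone and 1 in KO alone. The first position in genomic order with 2 tools was the GGACT at 222 nt, listed by Tombo and Epinano in WT and by Tombo in KO. In KO the GAACT at 662 nt had m6Anet and Epinano, and Epinano alone had listed it in WT.

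Senp5 (ENSMUSG00000022772, chr16:31959672-32003287, - strand), the nucleolar relative of Senp3, had 4 of 102 RRACH positions listed in WT (3.92%) and 2 in KO, and none in both. Each had 1 tool. The 4 WT positions, 3 by Epinano and 1 by Tombo, lay between 2533 and 3048 nt in the 3′ UTR. Both KO positions were AGACA 5-mers in the coding sequence, at -430 and -464 nt, listed by Tombo. Nothing was listed in the 44 RRACH positions upstream of -464 nt.

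Senp6 (ENSMUSG00000034252, chr9:80066903-80144953, + strand), which shortens chains of Sumo2 and Sumo3, had more positions in KO than in WT. WT lists held 21 of its 86 RRACH positions (24.4%) and KO lists 23 (26.7%), 11 of them in both, so that 10 were in WT alone and 12 in KO alone. All 12 KO-only positions lay in the coding sequence. Tombo listed 14 positions in WT and 17 in KO, of which 8 were the same, Epinano listed 14 and 4 with none the same, and Nanom6A listed 0 and 5. The GGACA at -463 nt and the AGACT at 102 nt each had Tombo, MINES and Epinano in WT and Tombo alone in KO. The first KO position in genomic order with 2 tools, an AAACA at -2066 nt, had Tombo and Nanom6A and was in no WT list.

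Senp7 (ENSMUSG00000052917, chr16:56048338-56190012, + strand), the other chain-editing protease, had no listed position in any of the 17 lists. Its 4825 nt transcript has 65 RRACH positions, 52 of them in the coding sequence, 12 in the 3′ UTR and 1 in the 5′ UTR, and 4 were GGACT. Whether reads covered Senp7 was not analysed here.

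The share of RRACH positions listed in WT or comparison lists thus ran from 0% in Senp7 to 100% in Sumo2, with a median of 29.0% over the 9890 coding genes. In KO it ran from 0% to 94.6% in Senp3, with a median of 22.2%. Among those genes, Sumo2 stood at the 99.2 percentile in WT and in KO and Senp3 at 98.4 and 99.2, whereas Senp5 stood at 14 and 10.6. Sumo3 stood at 79.7 and 86.9, Senp2 at 44.4 and 37.9, Senp6 at 43 and 58.2, and Senp1 at 30.3 and 22.1. From WT to KO, the order of the genes changed between Sumo2 and Senp3 and between Senp2 and Senp6. The ranks of Sumo2 and Senp3 rest in part on Nanom6A. It was the only WT or comparison tool at 10 of 17 positions in Sumo2 and 8 of 34 in Senp3. Percentiles without Nanom6A are not given here.

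**Figure D3:**
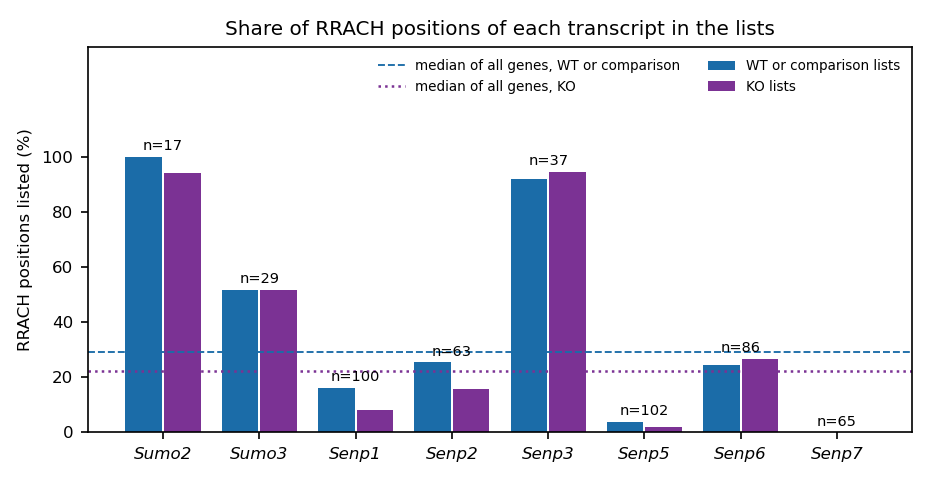
Percent of the RRACH positions of each gene's transcript that any tool listed, in WT or comparison lists (blue) and in KO lists (purple), with n the number of RRACH positions. Sumo2 and Senp3 reach over 90% in both, and the dashed and dotted lines are the medians of all genes, 29.0% and 22.2%.

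Tool by tool, the genes fell into sets that were seen in the data and were not fixed beforehand. All 61 WT positions of Nanom6A, all 16 of m6Anet, all 6 of ELIGOS and all 5 of xPore lay in Sumo2, Sumo3 and Senp3. In Senp1, Senp2, Senp5 and Senp6, all WT positions came from Tombo, Epinano and MINES. The study's methods asked for more reads at a site from m6Anet than from the other tools, and the part of read number in this pattern was not tested, since the lists carry none.

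**Figure D4:**
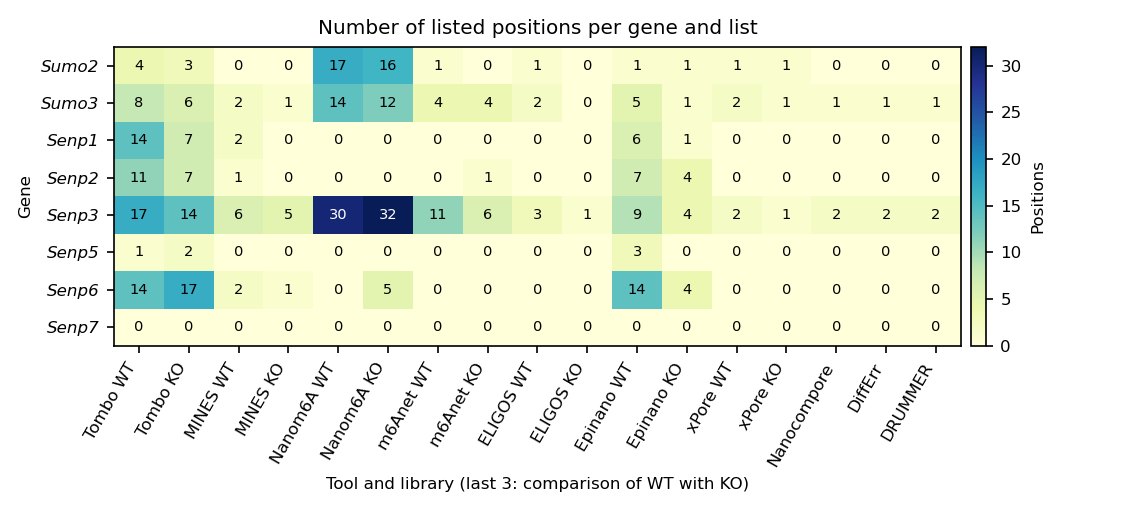
Number of listed positions of each gene (rows) in each of the 17 lists (columns, tool and library), with darker cells for more positions. Nanom6A lists 30 positions of Senp3 in WT and 32 in KO, and in the rows of Senp1, Senp2, Senp5 and Senp6 the WT positions stand under Tombo, MINES and Epinano.

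In Sumo2, Sumo3 and Senp3 together, 64 of 66 WT or comparison positions were listed in KO (97.0%), and 2 of 66 KO positions were in KO alone (3.03%). In Senp1, Senp2, Senp5 and Senp6 together, 25 of 57 were listed in KO (43.9%, 95% Wilson interval 31.8 to 56.7), and 18 of 43 KO positions were in KO alone (41.9%). Without Nanom6A, an alternative chosen after seeing the data, the share in the first set was 30 of 45 (66.7%, 52.1 to 78.6), in the second it remained 43.9%, and over all genes it was 53.9%. With every tool, the shares over all genes were the 59.0% listed in KO and 29.2% in KO alone given above. Positions of a gene share reads, so these intervals cover counting error only and the positions are no replicates.

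Each tool repeated a different share of its WT positions in KO. Nanom6A repeated 56 of 61 (91.8%, 82.2 to 96.4), against 65.4% of its positions over all genes. Tombo repeated 41 of 69 (59.4%, 47.6 to 70.2), against 59.7%, and Epinano 7 of 45 (15.6%, 7.75 to 28.8), against 16.5%. All 61 Nanom6A positions lay in 3 genes, so the pooled share describes those genes alone.

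The other 4 tools had between 5 and 16 WT positions each in these genes. m6Anet repeated 8 of 16 (50%, 28 to 72), against 34.4%, and MINES 6 of 13 (46.2%, 23.2 to 70.9), against 40.2%. Without Senp3, the share of m6Anet was 4 of 5 (80%, 37.6 to 96.4). That of MINES was 1 of 7 (14.3%, 2.57 to 51.3), below the share over all genes. ELIGOS repeated 1 of 6 (16.7%, 3.01 to 56.4), against 11.5%, and xPore 2 of 5 (40%, 11.8 to 76.9), against 24.9%. The 1 position that ELIGOS repeated was the GGACC of Senp3 at -1683 nt, and without Senp3 ELIGOS repeated 0 of 3 (0%).

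**Figure D5:**
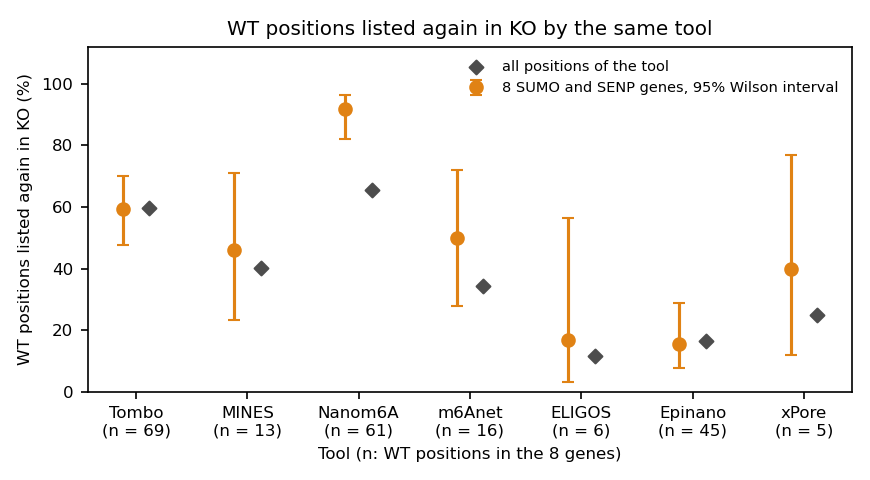
Percent of the WT positions of each tool that the same tool listed again in KO, in the 8 genes (orange, with 95% Wilson intervals) and over all genes (grey diamonds), with n the WT positions in the 8 genes. Nanom6A stands at 91.8% against 65.4%, Tombo at 59.4% against 59.7% and Epinano at 15.6% against 16.5%.

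The share that Nanom6A repeated can be set beside other genes. Among 1229 genes with at least 10 Nanom6A positions in WT, the median share listed again in KO was 76%. Sumo2, with 16 of 17, stood at 94.1% and the 77.4 percentile of these genes, Senp3, with 28 of 30, at 93.3% and the 75.9 percentile, and Sumo3, with 12 of 14, at 85.7% and the 62.9 percentile. Of the 21 member positions that Nanom6A alone listed in WT, 20 were listed in KO by at least 1 tool, and over all genes 75.6% of such positions were. For Tombo alone the count was 13 of 26, with 62.0% over all genes, and for Epinano alone it was 4 of 16, with 26.7%.

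Of 64 WT or comparison positions with 1 tool, 37 were listed in KO by at least 1 tool, with 52.8% over all genes. Of 42 with 2 tools, 35 were, with 69.0% over all genes. All 17 with 3 or more tools were, with 73.7% over all genes. Apart from the GGACA at -463 nt and the AGACT at 102 nt of Senp6, the 17 lay in Sumo2, Sumo3 and Senp3. In those 3 genes, 97.0% of WT or comparison positions were listed in KO. Whether the number of tools mattered apart from the gene was not tested. Positions with a single tool made up 52.0% of the members' WT or comparison positions, against 65.3% over all genes.

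By 5-mer, GGACT was listed in WT or comparison lists at 16 of its 29 RRACH positions on the 8 transcripts (55.2%), the highest share, and AAACA at 7 of 52 (13.5%), the lowest. GGACT made up 13.0% of the members' WT or comparison positions (8.17 to 20.1), against 11.9% over all genes and 5.81% of the RRACH positions on the 8 transcripts. Senp3 had 4 of 4 GGACT listed in WT and the same number in KO, Senp6 had 6 of 7 and 2, Senp2 3 of 4 and 2, Senp1 2 of 4 and 0, and Senp5 0 of 5 in either. No GGACT was among the 20 KO-only positions (0%, 0 to 16.1), and over all genes 7.44% of KO-only positions were GGACT. Of these 20, 18 lay in coding sequence (90%, 69.9 to 97.2), against 59.4% of KO-only positions over all genes and 55.9% of the RRACH positions on the 8 transcripts. Senp6, where 69 of 86 RRACH positions are coding, gave 12 of the 18. Of the 20, 12 held AAAC or GAAC (60%, 38.7 to 78.1), against 41.8% of KO-only positions over all genes and 49.3% of the RRACH positions on the 8 transcripts.

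Along the transcripts, 25 of the 123 WT or comparison positions lay within 200 nt of the stop codon (20.3%, 14.2 to 28.3), against 22.3% over all genes and 10% of the RRACH positions on the 8 transcripts. Coding sequence held 57.7% of them and the 3′ UTR 39.8%, against 56.3% and 40.4% over all genes. Of the 3 comparison positions, none lay within 200 nt of the stop codon, whereas 1582 of the 3127 comparison positions on a coding transcript over all genes did (50.6%). Runs of at least 5 equal bases within 10 bp were near 9 of the 123 (7.32%, 3.90 to 13.3), against 6.93% over all genes.

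Related genes were then aligned by their coding sequences, a step also chosen after the positions were known. Sumo2 and Sumo3 were identical at 82.9% of 275 aligned bases. RRACH stood in both genes at 4 aligned places, and 3 of these were listed in both. At the 2 conserved neighbours 4 nt apart, an AAACA and an AGACA, Nanom6A listed both in Sumo2 in WT and ELIGOS the AGACA. In Sumo3, Nanom6A and Tombo listed the AAACA in WT, and ELIGOS and xPore listed the AGACA. The GGACA of each gene that 3 tools repeated in KO aligned with GGGCA in the other gene, which is not RRACH.

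Senp3 and Senp5, identical at 68.4% of 715 aligned bases, shared 3 RRACH places, all 3 listed in Senp3 and none in Senp5. Where RRACH stood in Senp3 alone, 12 of 12 were listed, and in Senp5 alone, 2 of 8. Senp1 and Senp2, identical at 68.3% of 676, shared 6 RRACH places, of which 2 were listed in both, at -314 and -83 nt in each gene. Senp6 and Senp7, identical at 66.6% of 410, shared 2, and 1 was listed, in Senp6.

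Reads of Sumo2 and Senp3 can resemble other transcripts. For 20 of the 143 positions, the 41 nt around the base also stood in a transcript of another gene, mostly a processed pseudogene. They were 7 of 17 positions in Sumo2, 11 of 36 in Senp3 and 2 of 15 in Sumo3, and none in the other genes. Among them were the GGACT of Senp3 at -1048 nt, its GGACA at -377 nt, the GGACA of Sumo2 at -214 nt and the GGACA of Sumo3 at -142 nt, whereas the neighbours at -1683 and -1695 nt in Senp3 and the 2 Sumo3 positions at 510 and 838 nt were not. In Sumo3, 4 positions also lay in an exon of the overlapping coding gene Gm49325. How reads were shared out among these genes was not tested.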

How the data were processed

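DRS reads of 1 WT and 1 Mettl3 KO library were basecalled, aligned to a GENCODE transcriptome and searched by 10 tools by the authors, who converted transcript to genome positions and deposited 17 lists. The deposited columns hold positions, strands and names on GRCm38 (mm10), and the lists state no cut-off. The authors' methods describe cut-offs set by the highest F1 score against other m6A maps, but the deposited lists are not all of the size given for those cut-offs, so the cut-off behind each list is unknown.

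A site was a unique chromosome, start and strand. Genes came from same-strand exons of GENCODE M21, a later release than the authors', and 5-mers and sequences from a RefSeq copy of GRCm38. Each gene had 1 coding transcript, the one holding most of its positions. Positions named were those in comparison lists, those listed in both libraries by at least 4 tools, those with most tools per gene (ties in genomic order), and those with at least 5 tools and none in KO; others were named after their values were seen. The members and lists were chosen with earlier results of these data known. Shares have 95% Wilson intervals, and no test was made. The coverage of the Wilson intervals was checked on simulated counts, and the counting of the deposited lists was not checked by simulation. Python 3.11.15, pandas 2.3.3, scipy 1.17.1, pysam 0.24.0, Biopython 1.88 and samtools 1.23.1 were used. Single values of some genes of the SUMO pathway list are not reported here.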

Additional observations from a re-analysis of the deposited data

How the results depend on the processing

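Of 86 alternative values for 16 results, 66 moved by less than their interval or by at most 1.5 times and 20 moved by more. A change of direction against the share over all genes was not scored. Counting 1 site per line gave 254 WT or comparison and 189 KO positions. The count of positions listed in both libraries by at least 4 tools was 1 without Tombo, 1 without Nanom6A, 8 at 3 tools and 1 at 5 tools. With the KO list of any tool, the share listed again was 71.0% for Tombo, 84.6% for MINES, 98.4% for Nanom6A, 93.8% for m6Anet, 100% for ELIGOS, 62.2% for Epinano and 100% for xPore. Without Senp3, the gene with most WT positions, the share that the same tool listed again rested on few positions. It was 1 of 7 (14.3%) for MINES, 4 of 5 (80%) for m6Anet and 0 of 3 (0%) for ELIGOS. The share near the stop codon was 13.0% within 100 nt and 41.5% within 400 nt, and the share near runs of at least 4 equal bases was 30.1%. In Sumo2, Sumo3 and Senp3, the share listed in KO without Nanom6A was 66.7%. Without positions whose 41 nt lie in another gene, 2 of the 3 comparison positions were left. With any 4 tools in each library, 3 positions were in both. The alternatives without Nanom6A and without positions whose 41 nt lie in another gene were chosen after seeing the data. The cause of these shifts was not tested, except that wider windows, shorter runs and more lists count more by construction. No paired analysis was possible because each condition has 1 library and no result comes from a test. Depth is unknown, so a gene with few listings may have had few reads.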

Other observations

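The other genes of the SUMO pathway, 19 in a list, had 421 listed positions in 17 genes, and Rnf111 and Senp8 had none. Of their 347 WT or comparison positions, 74.9% were listed in KO, and 22.2% of their 334 KO positions were in KO alone. In comparison lists, the E1 subunits Sae1 and Uba2 had 4 and 2 positions, the E3 ligases Pias2 and Pias4 had 1 and 2, the SUMO-targeted ubiquitin ligase Rnf4 had 2 and the protease Desi1 had 1. Of the 421 positions, 8 were listed in both libraries by at least 3 tools and 0 by at least 4. Over all genes the shares were 1.61% and 0.248%.

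The 50 genes with a Usp symbol, a family known mainly for proteases that cut ubiquitin, had 993 positions in 37 genes. Of 797 WT or comparison positions, 57.5% were listed in KO, and 30% of 654 KO positions were in KO alone. Comparison lists held 16 positions in 5 genes, 2.01% of the WT or comparison positions against 2.45% over all genes. Of the 993 positions, 8 were listed in both libraries by at least 3 tools and 0 by at least 4, against the same 1.61% and 0.248% over all genes.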
